A study of Mus musculus with 12 samples.

Results

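The phagocyte NADPH oxidase was followed in MLL-AF9 leukemia cells through 5 genes, Cybb, Cyba, Ncf1, Ncf4 and Rac2, which were named by symbol among the 55401 genes measured in the series. The rule that picked them reads no expression value, but it was set with earlier results of these data known. All 5 were present and passed the filter of a mean of at least 1 TPM, which left 15026 genes for testing. TPM is a level corrected for the length of the gene and the size of the library. The question was which subunits differed with the immune status of the mouse that carried the leukemia.

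Mouse bone marrow progenitors had been transformed by the fusion oncogene MLL-AF9, carried on a retrovirus together with GFP, and the resulting acute myeloid leukemia had been passed through more than 10 transplantations. The cells were injected into 8–12-week-old female hosts that received no irradiation, at 1000000 cells per mouse in the study's comparisons of hosts. The hosts were WT C57BL/6J mice, Rag2-/- mice (C57BL/6J-Rag2em3Lutzy/J), in which neither B nor T lymphocytes mature, and NSG mice, in which NK cells are missing as well as both kinds of lymphocyte. Poly(A) RNA from 3000000 GFP+ cells of the bone marrow was sequenced in 4 libraries per host, 12 in all, each labelled as a biological replicate. The leukemia was 1 serially transplanted line, so the Rag2-/- and NSG genotypes belonged to the hosts and not to the cells sequenced, and the level of Rag2 (0 to 1.22 TPM) could not check the labels. NSG mice also differ from the other hosts in strain background, which cannot be told apart from their lack of NK cells here. The paper states that the cells came from moribund mice, and it reports slower leukemia in Rag2-/- and earlier onset in NSG hosts. Any difference in the time of collection or the course of disease cannot be told apart from the host.

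The phagocyte oxidase moves electrons from cytosolic NADPH across a membrane to oxygen and makes superoxide, which feeds the killing of microbes by neutrophils and macrophages. Its membrane core, flavocytochrome b558, pairs the catalytic subunit encoded by Cybb (NOX2) with the small subunit encoded by Cyba. At rest the organizer encoded by Ncf1 and the phosphoinositide-binding subunit encoded by Ncf4 wait in the cytosol, and on stimulation they join the core together with a GTP-bound Rac protein, mainly Rac2 in blood cells. Loss of the core or of a cytosolic subunit causes chronic granulomatous disease in people.

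Of the 5 subunits, Cybb differed between hosts by the threshold used, with higher levels in Rag2-/- hosts than in WT and in NSG hosts. The call of Cybb was lost in 4 of 23 alternative fits against WT and in 17 of 23 against NSG hosts. Ncf4, Rac2, Ncf1 and Cyba did not pass it in any comparison. No subunit was called between NSG and WT hosts, where the differences lay between -0.05 and 0.05 on the log2 scale. A gene was called where limma gave a Benjamini-Hochberg adjusted p under 0.05 and a difference of over 0.5 in log2(TPM + 1). By that rule 1 of 5 subunits was called between Rag2-/- and WT hosts, against 1.47% of all genes tested, and 1 of 5 between Rag2-/- and NSG hosts, against 0.213%. Since the subunits were chosen with earlier results of these data known, these shares are a description and not an independent comparison. Between NSG and WT hosts 0 of 5 were called, against 0% of all genes by limma, where 1377 genes had an unadjusted p under 0.05 and voom on the recovered reads called 1 gene.

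The regions before 3 of the genes are shown because the regulators of the oxidase genes are examined further on. RefSeq (build GRCm38.p6) gave a promoter for Cybb, Cyba and Ncf1, and the 250 bases before each annotated start site are printed in the direction of the gene. Capitals mark matches, on either strand, to GAAANNGAA (an element of the IRF family) and to CCAAT. The motifs GAGGAA (the core of PU.1 and other ETS sites) and TTGCNNAA (C/EBP) were searched too. The Cybb stretch is chrX:9469325-9469574, that of Cyba chr8:122432941-122433190 and that of Ncf1 chr5:134229626-134229875, all on the minus strand. The Cybb start of RefSeq lies inside the span of the gene in GENCODE, which begins further upstream.
Cybb: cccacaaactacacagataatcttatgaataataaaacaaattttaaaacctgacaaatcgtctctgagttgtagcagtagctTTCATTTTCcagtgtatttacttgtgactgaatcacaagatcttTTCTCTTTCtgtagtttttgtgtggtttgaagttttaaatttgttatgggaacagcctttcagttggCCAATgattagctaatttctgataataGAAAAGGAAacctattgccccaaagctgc
Cyba: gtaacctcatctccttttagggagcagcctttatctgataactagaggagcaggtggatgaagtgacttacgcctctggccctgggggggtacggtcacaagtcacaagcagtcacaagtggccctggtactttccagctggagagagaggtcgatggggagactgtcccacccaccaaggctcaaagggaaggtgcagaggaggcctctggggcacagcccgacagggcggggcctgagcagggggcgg
Ncf1: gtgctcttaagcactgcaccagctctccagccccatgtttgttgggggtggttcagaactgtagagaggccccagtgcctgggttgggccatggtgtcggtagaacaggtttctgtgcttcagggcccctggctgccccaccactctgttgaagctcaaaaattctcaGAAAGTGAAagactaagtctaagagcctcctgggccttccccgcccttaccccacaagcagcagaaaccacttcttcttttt
The Cybb stretch held 3 matches to GAAANNGAA, beginning 167, 123 and 29 bases before the start, and 1 to CCAAT, 56 bases before it. Ncf1 held 1 match to GAAANNGAA, 82 bases before its start, and Cyba held none of the 4 motifs. A match to GAGGAA on the other strand began 9 bases after the Cybb start, outside the printed stretch. In windows of 300 bases (250 before and 50 after the start) over 32851 RefSeq promoters, GAAANNGAA was found in 8.56%, CCAAT in 37.4%, GAGGAA in 28.3% and TTGCNNAA in 10.8%. The Cybb stretch was also the poorest of the 3 in G and C bases, at 34.0% against 54.4% for Ncf1 and 60.0% for Cyba. These are matches of letters and not measured binding sites.

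Cybb encodes the subunit that carries the electrons and lies on the minus strand of the X chromosome (mm10, chrX:9435252-9487771, 5808 exonic bases). In WT hosts its level was 24.9, 16.6, 22.1 and 21.4 TPM. In Rag2-/- hosts it was 33.9, 38.4, 48.9 and 28.7 TPM, and in NSG hosts 20.6, 19.2, 20.6 and 20.9 TPM. Each Rag2-/- library lay above each library of the other hosts, while the WT and NSG libraries overlapped. Libraries without overlap in either direction were seen for 16.9% of all genes between Rag2-/- and WT hosts and for 6.59% between Rag2-/- and NSG hosts. Cybb was the only subunit whose libraries did not overlap in these comparisons.

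The mean of Cybb was 21.2 ± 3.44 TPM in WT, 37.5 ± 8.60 TPM in Rag2-/- and 20.3 ± 0.774 TPM in NSG hosts (SD, n = 4 each). On the log2(TPM + 1) scale the level was higher by 0.78 ± 0.15 (SE) in Rag2-/- than in WT hosts, or 1.72-fold, with a 95% confidence interval of 0.46 to 1.10 (limma, adjusted p = 0.0206). Against NSG hosts the difference was 0.83 ± 0.15, or 1.78-fold, with an interval of 0.51 to 1.15 (limma, adjusted p = 0.0462). Both comparisons use the same Rag2-/- libraries. NSG minus WT was -0.05 (interval -0.37 to 0.27, limma adjusted p = 0.945), and it changed sign when WT replicate 1 was left out. The call against WT hosts was lost without WT replicate 2 (0.67, limma adjusted p = 0.0729), without Rag2-/- replicate 2 (0.76, adjusted p = 0.0680) and without Rag2-/- replicate 3 (0.65, adjusted p = 0.0629). The call against NSG hosts was lost in 9 of 12 fits that left out a library, with adjusted p-values of up to 0.159 (without Rag2-/- replicate 2), and in 8 of 11 other settings. In all of these fits the difference stayed between 0.65 and 0.94.

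**Figure D1:**
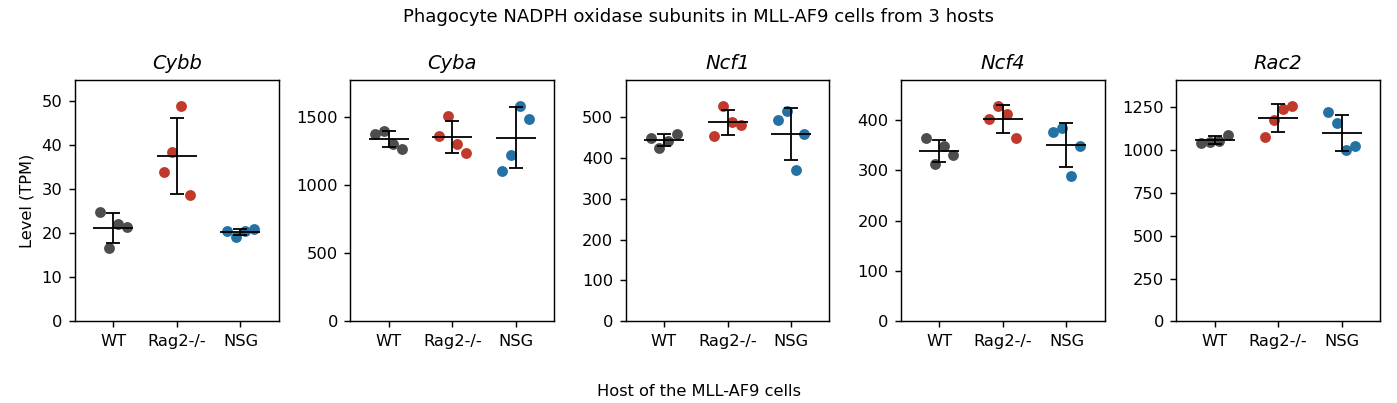
Level in TPM of the 5 oxidase subunits in MLL-AF9 cells by host, with 1 point per library and a black bar for the mean ± SD (n = 4). The 4 Rag2-/- points of Cybb, 28.7 to 48.9 TPM, lie above the WT and NSG points, and the points of the other 4 subunits overlap between hosts.

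Cybb rose beside markers of neutrophils, and whether the higher level came from more cells of a type or from more RNA per cell cannot be told apart in bulk RNA. The summed level of 12 neutrophil markers was 210.1 to 338 TPM in WT, 688 to 2155 TPM in Rag2-/- and 328 to 358 TPM in NSG hosts. In WT and NSG hosts most of this sum was 1 gene, Lcn2, at means of 192 and 218 TPM, against 436 TPM in Rag2-/- hosts. Of these 12 genes, which include S100a8, S100a9, Ngp and Ltf, 11 were called higher against WT and 9 against NSG hosts. The shares of all genes called in either direction were 1.47% and 0.213%. None of the 12 was at 0 in every library. Within the Rag2-/- hosts, replicate 4 had the lowest neutrophil sum (688 TPM) and the lowest Cybb (28.7 TPM). Replicate 3, with the highest Cybb (48.9 TPM), had a neutrophil sum of 2003 TPM, between those of replicates 1 and 2 (2155 and 1907 TPM). WT replicate 2 had the lowest sum of all libraries, 210.1 TPM, and the lowest Cybb, 16.6 TPM. Without Rag2-/- replicate 4 the difference in Cybb was 0.90 against WT and 0.94 against NSG hosts, with adjusted p-values of 0.00806 and 0.0138 (limma). The part of the neutrophil markers in the level of Cybb was not tested. The cells had been collected as GFP+.

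**Figure D2:**
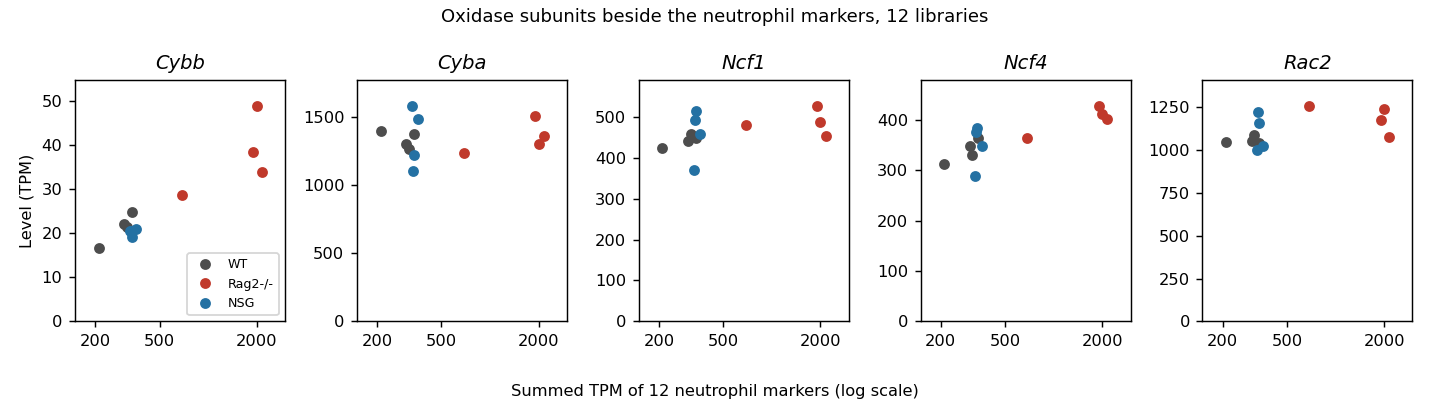
Level in TPM of each subunit (vertical axis) against the summed TPM of 12 neutrophil markers in the same library (horizontal axis, log scale), with 1 point per library coloured by host. The 3 Rag2-/- libraries with sums of 1907 TPM or more have Cybb levels of 33.9 to 48.9 TPM, and the fourth, at 688 TPM, has 28.7 TPM.

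The summed level of 10 macrophage markers was 93.2 to 101 TPM in WT, 106 to 123 TPM in Rag2-/- and 56.7 to 115 TPM in NSG hosts. Adgre1 and Vcam1 together made up most of this sum in each host. Of the 8 tested, 7 were above 0 against WT and 8 against NSG hosts, with a median log2 difference of 0.68 and 1.06. The libraries of 4 and 5 of them did not overlap between the hosts, against 16.9% and 6.59% of all genes. By limma 5 and 6 had an unadjusted p under 0.05, against 20.9% and 12.6% of all genes. In each comparison 1 was called higher (C1qc against WT and Axl against NSG), against 1.47% and 0.213% of all genes in either direction. C1qb, a chain of the complement protein C1q, stood at 0.991 to 4.47 TPM in WT, 5.43 to 12.2 TPM in Rag2-/- and 1.16 to 2.08 TPM in NSG hosts, with differences of 1.31 and 1.75 that missed the threshold (limma adjusted p = 0.0506 and 0.0518). The part of these markers in the level of Cybb was not tested. The 6 monocyte markers summed to 2007 to 2126 TPM in WT, 1524 to 1879 TPM in Rag2-/- and 1437 to 1936 TPM in NSG hosts, and 1 of them, Ly6c2, was called lower against WT. Ms4a1, which marks B cells, and Cd3e, which marks T cells, were at 0 in all 12 libraries, and the 8 T and NK cell markers, led by Nkg7, summed to 5.57 to 7.57 TPM in WT, 3.66 to 9.39 TPM in Rag2-/- and 1.81 to 8.37 TPM in NSG hosts. Ncr1, a receptor of NK cells, was at 0 in all WT and NSG libraries and at 0.391, 0.408, 0.531 and 0.108 TPM in the Rag2-/- libraries, on 2 to 6 recovered reads each. Gzma, a granzyme of NK and T cells, was at 0 in the WT libraries, at 2.39, 0.624, 1.62 and 1.32 TPM in the Rag2-/- libraries, and at 1.67 TPM in NSG replicate 2 and 0 in the other NSG libraries. Both genes were highest by mean in Rag2-/- hosts, were too low to pass the filter, and had no test. Nkg7, the 1 gene of this list that was tested, went the other way. Its means were 5.93, 3.49 and 5.19 TPM in WT, Rag2-/- and NSG hosts, with a difference of -0.72 against WT that was not called. The B cell list summed to 125 to 222 TPM, with Pax5 under 1 TPM in every library. Most of this sum was Ighm, at means of 183, 164 and 177 TPM in WT, Rag2-/- and NSG hosts. Erythroid markers summed to 3.05 to 12.1 TPM. Markers of the labelled cell type (Hoxa9, Hoxa10, Meis1, Kit, Itgam, Ptprc and Cd33) were present. They summed to 1121 to 1269 TPM in WT, 1361 to 1592 TPM in Rag2-/- and 1180 to 1413 TPM in NSG hosts. Against WT hosts 6 were above 0 and 1 below, and 1 was called higher. Mean Cd33 was 531, 801 and 618 TPM in WT, Rag2-/- and NSG hosts, and mean Kit was 110, 82.9 and 91.9 TPM.

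Cyba encodes the membrane partner that holds NOX2 in place (mm10, chr8:122424776-122432930, minus strand, 1039 exonic bases). Its level was 1371, 1395, 1304 and 1267 TPM in WT, 1362, 1507, 1302 and 1237 TPM in Rag2-/- and 1101, 1221, 1582 and 1482 TPM in NSG hosts. The NSG libraries spanned the range of both other hosts. The differences were 0.02 (95% confidence interval -0.21 to 0.24) between Rag2-/- and WT hosts, 0.02 (-0.21 to 0.24) between Rag2-/- and NSG hosts and -0.00 (-0.23 to 0.23) between NSG and WT hosts. The limma adjusted p-values were 0.948, 0.969 and 0.999, and the sign of each difference turned under other settings. Differences of up to 0.24 on the log2 scale lay inside these intervals. A readthrough gene on the opposite strand, Gm20388, overlaps Cyba and was listed at 0 TPM in all 12 libraries.

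The ratio of the core's catalytic to its small subunit moved with Cybb. For each 100 TPM of Cyba, Cybb stood at 1.19 to 1.81 TPM in WT, 2.32 to 3.76 TPM in Rag2-/- and 1.30 to 1.87 TPM in NSG hosts. This ratio is free of the scaling of a library, and its Rag2-/- values did not overlap those of the other hosts. No test was made of it, since it was computed after the levels were seen.

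Ncf1 encodes the organizer that brings the cytosolic subunits to the membrane (mm10, chr5:134220053-134229625, minus strand, 3663 exonic bases). Its level was 447, 424, 441 and 459 TPM in WT, 452, 527, 486 and 479.8 TPM in Rag2-/- and 492, 513, 369 and 458 TPM in NSG hosts. Rag2-/- replicate 1 lay within the WT range and NSG replicate 3 was the lowest of all 12. The difference between Rag2-/- and WT hosts was 0.13 (95% confidence interval -0.06 to 0.33, limma adjusted p = 0.420), and against NSG hosts it was 0.10 (-0.10 to 0.29, adjusted p = 0.722). NSG minus WT was 0.04 (-0.15 to 0.23, limma adjusted p = 0.930). Gtf2ird2 on the opposite strand overlaps Ncf1 and stood at 13.2 to 22.5 TPM, and whether reads were counted by strand is not given in the sources used here.

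Ncf4 encodes the subunit that binds phosphatidylinositol 3-phosphate on phagosomes (mm10, chr15:78244801-78262580, plus strand, 2020 exonic bases). Its level was 363, 312, 347 and 331 TPM in WT, 401, 428, 411 and 363 TPM in Rag2-/- and 376, 384, 288 and 348 TPM in NSG hosts. The lowest Rag2-/- library, replicate 4, lay just under the highest WT library, replicate 1, and NSG replicate 3 was the lowest of all 12. The difference between Rag2-/- and WT hosts was 0.24 ± 0.09 (SE), or 1.18-fold, with an interval of 0.05 to 0.44 (limma, adjusted p = 0.144). Against NSG hosts it was 0.20 ± 0.09, with an interval of 0.01 to 0.40 (limma, adjusted p = 0.358). Neither passed the threshold. NSG minus WT was 0.04 (-0.15 to 0.23, limma adjusted p = 0.930).

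Rac2 encodes the GTPase that switches the assembled oxidase on and that also drives migration of blood cells (mm10, chr15:78559167-78572783, minus strand, 3103 exonic bases). Its level was 1041, 1047, 1050.2 and 1087 TPM in WT, 1072, 1173, 1238 and 1256 TPM in Rag2-/- and 1217, 1153, 997 and 1024 TPM in NSG hosts. The WT libraries lay close together, at an SD of 20.8 TPM, against 83.3 TPM in Rag2-/- and 105 TPM in NSG hosts. The difference between Rag2-/- and WT hosts was 0.16 ± 0.07 (SE; interval 0.01 to 0.32, limma adjusted p = 0.217). Against NSG hosts it was 0.11 (-0.04 to 0.27, limma adjusted p = 0.566), and NSG minus WT was 0.05 (-0.10 to 0.21, adjusted p = 0.872).

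The 5 differences between Rag2-/- and WT hosts were all above 0, with a median of 0.16 against 0.02 over all genes tested, and 3 of them (Cybb, Ncf4 and Rac2) had an unadjusted p under 0.05 in limma, as did 20.9% of all genes. Against NSG hosts all 5 were again above 0, with a median of 0.11 against 0.01 over all genes, and 2 had an unadjusted p under 0.05, as did 12.6% of all genes. Both comparisons share the Rag2-/- libraries. Between NSG and WT hosts 3 were above 0 and 2 below it. The direction of Cyba turned in both comparisons under median ratio scaling and in the voom fit, and that of Ncf1 turned against NSG hosts without NSG replicate 3.

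**Figure D3:**
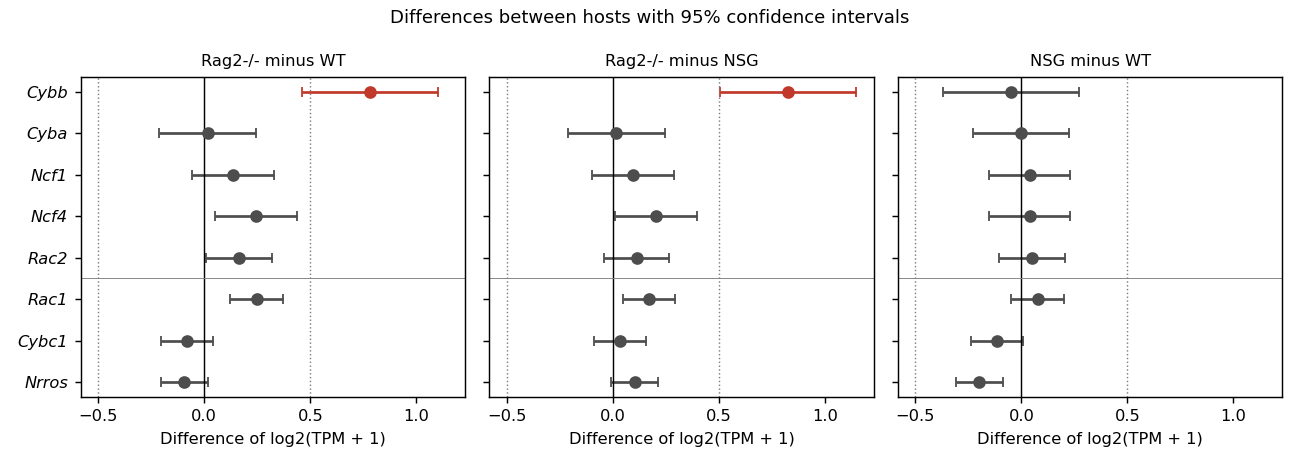
Difference in log2(TPM + 1) between hosts for the 5 subunits (above the grey line) and for Rac1, Cybc1 and Nrros (below it), as points with 95% confidence intervals from limma. Red marks the called differences of Cybb, at 0.78 and 0.83, and dotted lines stand at 0.5 and -0.5.

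Per length of transcript, the subunits were far from equal. Mean levels ran from Cyba (1334, 1352 and 1346 TPM in WT, Rag2-/- and NSG hosts) through Rac2 (1056, 1185 and 1098 TPM), Ncf1 (443, 486 and 458 TPM) and Ncf4 (338, 401 and 349 TPM) down to Cybb (21.2, 37.5 and 20.3 TPM). The neighbours Cyba and Rac2 changed places in some libraries, such as NSG replicate 1 (1101 and 1217 TPM), while Ncf1 was above Ncf4 in each library at 1.13 to 1.39 TPM per TPM. Among all genes by mean level, Cyba ranked 82, 76 and 79 in the 3 hosts and Cybb 7153, 5160 and 7354. The gene that differed between hosts was thus the lowest of the 5. Its level rested on 486 to 2003 recovered reads per library, on a scale where the commonest low step of the values was taken as 2 reads.

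Rac1, the GTPase closest to Rac2, stood at 268, 249.7, 268 and 281 TPM in WT, 305, 317, 335 and 311 TPM in Rag2-/- and 298, 299, 264 and 267 TPM in NSG hosts. The Rag2-/- libraries lay above all others. The difference from WT hosts was 0.25 ± 0.06 (SE; limma adjusted p = 0.0426), which was under the limit of 0.5 and was not called. Against NSG hosts it was 0.17 (limma adjusted p = 0.224). The ratio of Rac2 to Rac1 was 3.86 to 4.19 in WT, 3.51 to 4.04 in Rag2-/- and 3.78 to 4.08 in NSG hosts, with overlap between all of them.

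Cybc1 and Nrros encode endoplasmic reticulum proteins that act on the amount of NOX2 protein, Cybc1 as a chaperone of the core and Nrros by promoting its degradation. Cybc1 stood at 103, 106, 105 and 117 TPM in WT, 109, 101, 98.5 and 97.3 TPM in Rag2-/- and 95.4, 101, 96.2 and 104 TPM in NSG hosts, with a difference of -0.08 between Rag2-/- and WT hosts (limma adjusted p = 0.440). Nrros stood at 477, 486, 454 and 486 TPM in WT, 448, 454, 427 and 454 TPM in Rag2-/- and 446, 393, 393 and 428 TPM in NSG hosts. Each WT library of Nrros was above each library of the other hosts, but the differences from WT, -0.09 for Rag2-/- and -0.20 for NSG hosts, did not pass the test (limma adjusted p = 0.317 and 0.342). Libraries without overlap were seen for 4.59% of all genes between NSG and WT hosts. Hexdc on the opposite strand overlaps Cybc1 and stood at 3.53 to 6.39 TPM.

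Over a list of 19 partners of the oxidase, which adds kinases, exchange factors and adaptors to these 3 genes, 1 was called between Rag2-/- and WT hosts and 0 in the other comparisons. The median difference was 0.05 against WT and 0.07 against NSG hosts. By limma 6 of the 19 had an unadjusted p under 0.05 against WT, 6 against NSG hosts and 3 between NSG and WT hosts. Over all genes these shares were 20.9%, 12.6% and 9.16%, and the shares called were 1.47%, 0.213% and 0%. Voom called 0 of the 19 against NSG hosts and 0 between NSG and WT hosts. The called gene was Prex1, an exchange factor that loads Rac proteins with GTP. Prex1 stood at 35.7, 24.9, 28.9 and 27.0 TPM in WT, 42.1, 43.8, 50.5 and 34.3 TPM in Rag2-/- and 33.0, 28.5, 32.6 and 34.1 TPM in NSG hosts, where Rag2-/- replicate 4 lay under WT replicate 1. Its difference from WT hosts was 0.54 ± 0.12 (SE; limma adjusted p = 0.0422), and the call was lost in 12 of 23 alternative fits, with adjusted p-values of up to 0.134. Rap1a, the GTPase that copurifies with the core, stood at 150.5 to 173 TPM in WT, 182 to 206 TPM in Rag2-/- and 165 to 203 TPM in NSG hosts and was not called (0.27 against WT, limma adjusted p = 0.0774).

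Other NADPH oxidases were at or near 0. Of 9 genes for other oxidases of the family and their organizers, 8 were under 1 TPM in every library, and Nox3, Nox4 and Noxa1 were listed at 0 in all of them. Noxo1, an organizer of NOX1, was the 1 gene of the 9 that passed the filter, at 0.445 to 2.10 TPM, and it was not called (0.28 between Rag2-/- and WT hosts, limma adjusted p = 0.577).

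Of 21 genes that dispose of superoxide and peroxide or answer to them 20 were tested, with 2 called higher and 1 lower in Rag2-/- than in WT hosts, 1 called higher than in NSG hosts and 0 called between NSG and WT hosts. Their median difference was 0.08 against WT and 0.06 against NSG hosts. By limma 11 of the 20 had an unadjusted p under 0.05 against WT, 8 against NSG hosts and 4 between NSG and WT hosts. The shares over all genes were 20.9%, 12.6% and 9.16%, and those of called genes 1.47%, 0.213% and 0%. Against WT hosts Prdx6 (-0.22) and Prdx1 (0.32) had limma adjusted p-values of 0.0154 and 0.0299. Their differences were within the limit of 0.5 and were not called. Between NSG and WT hosts voom called 0. Voom called 1 of the list against WT hosts, where limma called 3, and 2 against NSG hosts, where limma called 1.

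Hmox1, which encodes the heme-degrading heme oxygenase, stood at 49.6, 49.5, 53.8 and 46.7 TPM in WT, 78.4, 75.9, 74.4 and 60.6 TPM in Rag2-/- and 41.2, 51.3, 51.3 and 51.1 TPM in NSG hosts. As with Cybb, the Rag2-/- libraries lay above all others and replicate 4 was the lowest of them. The difference was 0.52 ± 0.09 (SE) from WT and 0.56 ± 0.09 from NSG hosts (limma adjusted p = 0.0170 and 0.0437). By the p or the limit of 0.5, the calls were lost in 7 of 23 alternative fits against WT and 17 of 23 against NSG hosts, with adjusted p-values of up to 0.0641 and 0.160.

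Nqo1, a quinone reductase, stood at 1.53, 2.04, 1.65 and 0.817 TPM in WT, 3.81, 3.44, 3.29 and 2.84 TPM in Rag2-/- and 3.94, 2.59, 2.73 and 2.78 TPM in NSG hosts. It was lowest in WT hosts, and the Rag2-/- and NSG libraries overlapped. These levels rest on few reads. Nqo1 has 1553 exonic bases, and in WT replicate 4, its lowest library, 3 reads on 1000 bases correspond to 0.634 TPM. Its difference between Rag2-/- and WT hosts was 0.81 ± 0.19 (SE; limma adjusted p = 0.0426), and the call was lost in 15 of 22 alternative fits, with adjusted p-values of up to 0.120.

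Mpo encodes myeloperoxidase, the granule enzyme that turns the hydrogen peroxide formed from superoxide into hypochlorous acid. Mpo stood at 537, 508, 593 and 574 TPM in WT, 121, 102, 70.1 and 287 TPM in Rag2-/- and 710.4, 394, 219 and 444 TPM in NSG hosts. All Rag2-/- libraries were under all WT libraries, and Rag2-/- replicate 4, the one with the lowest Cybb, had the most Mpo of its host. Mpo fell by 2.13 ± 0.39 (SE) on the log2 scale between WT and Rag2-/- hosts (limma adjusted p = 0.0189), so it moved opposite to Cybb. The call was lost in 4 of 23 alternative fits, each without 1 library, with adjusted p-values of up to 0.0648. Against NSG hosts the difference was -1.69 (limma adjusted p = 0.0968) and was not called.

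Among 7 genes that supply NADPH, the electron donor of the oxidase, 1 was called between Rag2-/- and WT hosts and 0 in the other comparisons. The median difference was 0.00 against WT and 0.04 against NSG hosts. By limma 2 of the 7 had an unadjusted p under 0.05 in each comparison with Rag2-/- hosts and 0 between NSG and WT hosts. Among all genes tested, 20.9%, 12.6% and 9.16% had such a p, and 1.47%, 0.213% and 0% were called. Voom called 0 of the 7 against NSG hosts and 0 between NSG and WT hosts. Me1, the cytosolic malic enzyme, stood at 7.67, 7.83, 10.2 and 10.1 TPM in WT, 16.6, 15.5, 15.4 and 13.4 TPM in Rag2-/- and 10.1, 10.8, 14.1 and 9.60 TPM in NSG hosts. Its Rag2-/- libraries lay above the WT ones, with a difference of 0.71 ± 0.13 (SE; limma adjusted p = 0.0198), and the call was lost in 4 of 23 alternative fits, each without 1 library, with adjusted p-values of up to 0.0743. G6pdx, which opens the pentose phosphate pathway, stood at 209.8 to 217 TPM in WT, 238 to 303 TPM in Rag2-/- and 201 to 247 TPM in NSG hosts, with a difference of 0.32 from WT that was not called (limma adjusted p = 0.0526). Idh1 stood at 255 to 287 TPM in WT, 280.4 to 324 TPM in Rag2-/- and 226 to 313 TPM in NSG hosts and was not called (0.14, adjusted p = 0.374).

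**Figure D4:**
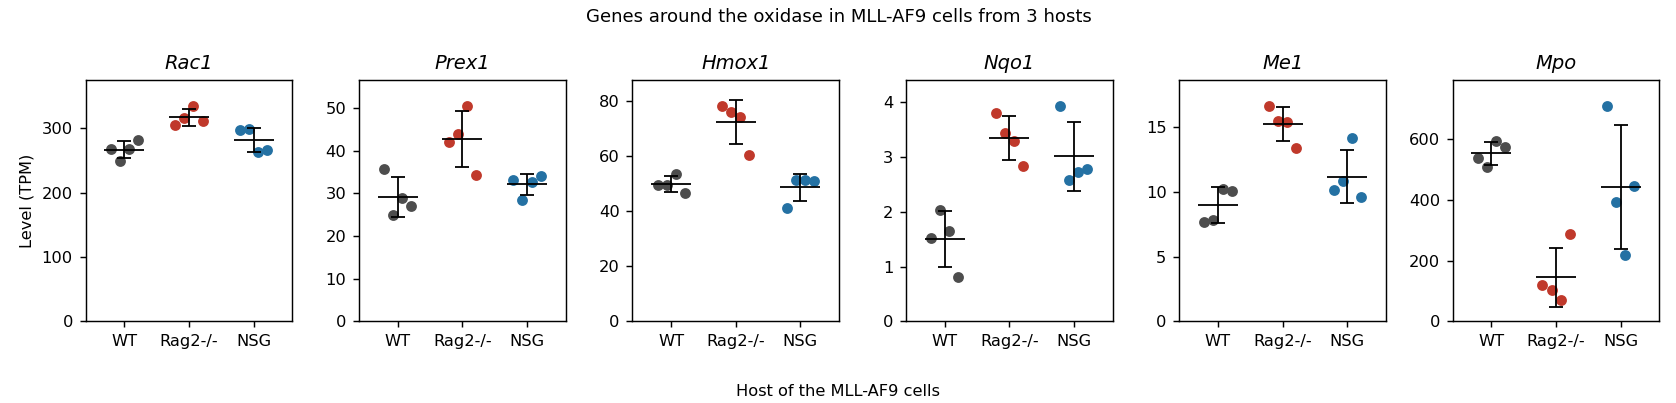
Level in TPM of Rac1, Prex1, Hmox1, Nqo1, Me1 and Mpo by host, with 1 point per library and a black bar for the mean ± SD (n = 4). The Rag2-/- points of Mpo, 70.1 to 287 TPM, lie under all WT points, and the Rag2-/- points of Hmox1, 60.6 to 78.4 TPM, lie above all others.

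None of 12 regulators of oxidase genes, among them Spi1 (PU.1), Irf1, Irf8 and Hoxa10, was called in any comparison. By limma 4 of the 12 had an unadjusted p under 0.05 against WT, 3 against NSG hosts and 0 between NSG and WT hosts. The same held for 20.9%, 12.6% and 9.16% of all genes. Voom called 0, 0 and 0 of the regulators. The median difference was 0.08 against WT and 0.09 against NSG hosts. Cebpa, which directs granulocyte formation, was the furthest from 0, at 276 to 302 TPM in WT, 203 to 231 TPM in Rag2-/- and 184 to 308 TPM in NSG hosts. Its Rag2-/- libraries lay under the WT ones, but the difference of -0.36 did not pass the test (limma adjusted p = 0.157). Cebpe stood at 139 to 219.7 TPM in WT, 119 to 161 TPM in Rag2-/- and 130.1 to 219 TPM in NSG hosts (-0.28 against WT, limma adjusted p = 0.358). Irf2 stood at 19.2 to 22.3 TPM in WT, 21.9 to 28.1 TPM in Rag2-/- and 18.9 to 26.4 TPM in NSG hosts (0.25 against WT, limma adjusted p = 0.212). Spi1 stood at 548 to 582 TPM in WT, 596 to 654 TPM in Rag2-/- and 570 to 586 TPM in NSG hosts. Its Rag2-/- libraries lay above all others, with differences of 0.16 from WT and 0.11 from NSG hosts (limma adjusted p = 0.0751 and 0.329).

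The genes most like each subunit over the 12 libraries were found by the root mean square difference of their Z scores, a description that uses the same libraries and was not tested. Cybb was nearest to Cpne8 (0.178), Agfg1 (0.224) and Cd177 (0.253), of which Cd177 encodes a surface protein of neutrophils. Cd177 stood at 84.9 to 143 TPM in WT, 147 to 334 TPM in Rag2-/- and 97.7 to 132 TPM in NSG hosts. Cpne8 stood at 11.8 to 16.2 TPM in WT, 17.9 to 27.1 TPM in Rag2-/- and 13.2 to 15.0 TPM in NSG hosts. The order of the Rag2-/- replicates 1, 2, 3 and 4 in Cpne8, with replicate 3 highest and replicate 4 lowest, was that of Cybb. Cpne8 was picked for its nearness to Cybb over these same libraries, so the like order is no separate result.

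The subunits were further from each other than from their nearest genes, which follows largely from choosing those genes as the nearest. From Cybb the distance was 0.702 to Ncf4, 0.943 to Rac2, 1.04 to Ncf1 and 1.29 to Cyba, ranking 730, 2333, 3358 and 7109 among the 15025 other genes. The closest pair of subunits was Ncf1 and Ncf4, at 0.516, where each ranked 87 for the other. Cyba was the furthest from the rest, at 1.29 to 1.73, with Arpc1b (0.292), Arhgap30 (0.380) and Bloc1s3 (0.387) nearest to it. Ncf1 was nearest to Srgap3 (0.276), Rab29 (0.316) and Igsf6 (0.335), Ncf4 to Eif4g3 (0.185), Rbm47 (0.290) and Bcl6 (0.337), and Rac2 to Cr1l (0.233), Mbnl1 (0.248) and Arhgef6 (0.262).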

How the data were processed

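RNA-seq of GFP+ MLL-AF9 cells was analysed from 1 deposited table of TPM, 1 column per library and 4 libraries for each of WT, Rag2-/- and NSG hosts. The authors aligned paired-end reads to mm10 with HISAT2 on Galaxy, took raw gene counts and calculated TPM from them. The counting tool, annotation and gene lengths are not given in the sources used here. Gene IDs were matched to symbols with GENCODE M21 (55141 of 55401 matched). The 15026 genes whose mean reached 1 TPM entered a fit of log2(TPM + 1) in limma 3.58.1 (R 4.3.3), with all 12 libraries in 1 fit, a mean-variance trend and Benjamini-Hochberg adjustment over all genes tested. A gene was called at an adjusted p under 0.05 and a log2 difference of over 0.5. Fold changes are on this scale and understate those of low genes. TPM is relative within a library.

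TPM multiplied by exonic length came in whole steps for 98.6% to 98.9% of genes with under 40 reads (tolerance 0.04 reads), which gave depths of 16008920 to 42811385 reads where the commonest low step is taken as 2 reads, an assumption, since how read pairs were counted is not given in the sources used here. At these depths 3 reads on 1000 bases correspond to 0.249 to 0.647 TPM. These reads were used in voom, an alternative added after the data were seen.

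The members and lists were chosen with earlier results of these data known. Named genes were the 5 subunits, Rac1, Cybc1, Nrros, each called gene of the lists and up to 3 genes per list with the largest differences. In marker lists, sums and genes at 0 are given, and for likeness the 3 nearest genes. Lcn2, Adgre1, Vcam1, C1qb, C1qc, Axl, Ly6c2, Ncr1, Gzma, Nkg7, Ighm, Cd33, Kit, Prdx1, Prdx6, Spi1 and the examples of lists were named after their values were seen. The fit was tested on simulated data. No pair of libraries was identical. The labels name biological replicates without saying which mice they came from, so p-values measure the spread between these libraries. The alternatives were another pseudocount, 3 filters, 2 scalings, no trend, pairwise fits, a block, a split of the libraries and leaving out each library. The labels do not give this split, and all WT libraries fell in the same part of it. No protein sequences were used. Some items of the lists are not reported here.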

Additional observations from a re-analysis of the deposited data

Results flagged for a closer look

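In 39 groups of 4 libraries (13 genes in 3 hosts), the gap of the highest or lowest library to its neighbour, as a share of the range of the group, was compared with Dixon's 95% limit, which chance passes in about 1 of 20 groups. It was passed in 2 groups, none of them of the 5 subunits. Hmox1 in NSG replicate 1 was the lowest of its host, with a share of 0.975 (41.2 TPM against 51.3, 51.3 and 51.1 TPM), and without that library the difference from NSG hosts was 0.48 and was not called (limma adjusted p = 0.0564). Nqo1 in NSG replicate 1 was the highest of its host, with a share of 0.856 (3.94 TPM against 2.59, 2.73 and 2.78 TPM).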

How the results depend on the processing

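Cybb kept its direction between Rag2-/- and the other hosts in all 23 alternative fits of each comparison. Against WT hosts its call was lost in 4 (0.78, adjusted p = 0.0503, with a split not given by the labels that set Rag2-/- replicates 3 and 4 and NSG replicates 1 and 2 against the rest, and 3 of the fits without 1 library, where it ranged from 0.65 to 0.90), and the count of called subunits was 0 there. Against NSG hosts its call was lost in 17: 0.83 with all genes above 0, without a trend, with the split, with a replicate block and in the 8 libraries alone, 0.81 by median ratio scaling, 0.855 with a pseudocount of 0.1, 0.805 by quantile normalization, and 9 of the fits without 1 library, where it ranged from 0.69 to 0.94. The adjusted p-values of the settings that lost the call, other than left-out libraries, ran from 0.0531 to 0.0931, and voom kept it (0.78, adjusted p = 0.0300), and the count of called subunits was 0 where the call was lost and ranged from 0 to 1 without 1 library in both comparisons.

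Called genes between Rag2-/- and WT hosts numbered 221, but 114 with all genes above 0, 357 in the 8 libraries alone, 420 with no limit on the fold change and 48 to 327 without 1 library (48 without WT replicate 2, 51 without Rag2-/- replicate 3, 53 without Rag2-/- replicate 2). Between Rag2-/- and NSG hosts they numbered 32, but 7 with all genes above 0, 11 by median ratio scaling, 14 with a pseudocount of 0.1, 19 by quantile normalization, 15 with the split, 6 in the 8 libraries alone, 18 without a trend, 59 by voom and 4 to 90 without 1 library. Between NSG and WT hosts they numbered 0, but 2 with all genes above 0, 1 by voom and 0 to 2 without 1 library. The count of called oxidase partners against WT hosts was 1, but 0 with all genes above 0, by median ratio scaling, without a trend and with the split, 2 with no limit on the fold change (Prex1 and Rac1) and 0 to 1 without 1 library.

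Samples with the same number did not deviate together (0 of 12 correlations over 0.1), so the numbers were not taken as pairs. With a replicate block, 165 genes were called between Rag2-/- and WT hosts, 5 between Rag2-/- and NSG hosts and 0 between NSG and WT hosts. Cybb then differed by 0.78 from WT (adjusted p = 0.0384) and by 0.83 from NSG hosts (adjusted p = 0.0752), and 0 oxidase partners were called.

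Differences near 0 changed sign. Cyba between Rag2-/- and WT hosts was -0.0081 by median ratio scaling, -0.0075 by voom and -0.038 to 0.058 without 1 library. Against NSG hosts it was -0.0013 by median ratio scaling, -0.022 by voom and -0.074 to 0.10 without 1 library. Between NSG and WT hosts it was 0.14 with the split, 0.014 by voom and -0.084 to 0.090 without 1 library. Cybb between NSG and WT hosts was -0.16 to 0.029 without 1 library. Ncf1 against NSG hosts was -0.0050 to 0.15 without 1 library, and between NSG and WT hosts -0.030 with the split and -0.019 to 0.14 without 1 library. Ncf4 between NSG and WT hosts was -0.0017 with the split and -0.010 to 0.13 without 1 library, and Rac2 -0.045 with the split and -0.00046 to 0.095 without 1 library. Cybc1 against NSG hosts was -0.0017 by voom and -0.0031 to 0.057 without 1 library. The cause was not tested for any of these. With 4 libraries per host, the intervals of the other subunits left room for differences of up to 0.44 on the log2 scale.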
